A study of Sus scrofa with 4 samples.

Results

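The genes described here carry glucose from uptake to lactate, to the pyruvate dehydrogenase complex and into the pentose phosphate pathway. They are 35 genes taken by gene name from the table of raw counts: 2 glucose transporters, 19 genes of glycolysis and its control, 4 genes of lactate, 6 of pyruvate dehydrogenase and 4 of the pentose phosphate pathway. All 35 names had a row among the 29837 named genes, no symbol was missing, and all 35 passed the filter on low counts, which left 15980 genes. RNA came from epidermal cells of juvenile LGR5-H2B-GFP pigs, in which a histone H2B-GFP sequence was knocked into exon 1 of an LGR5 allele, so that the LGR5 promoter drives GFP. The line was founded from clones of edited fetal fibroblasts by nuclear transfer, the study used founders and their progeny, and every library, GFP-negative cells included, came from an animal with the knock-in. GFP-hi cells (LGR5-high) and GFP-neg cells (LGR5-negative) were sorted from hair and epidermis of 2 pigs, 88R and 95R, giving 4 libraries. The LGR5-negative sort is not a single cell type, GFP-low cells were not among the libraries, and since H2B-GFP is a stable label that dilutes with division, a GFP level need not equal the current LGR5 level.

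Glycolysis splits glucose into pyruvate in the cytosol and yields ATP without oxygen. Pyruvate is then reduced to lactate by lactate dehydrogenase or enters the mitochondrion, where the pyruvate dehydrogenase complex commits it to the citric acid cycle. The pentose phosphate pathway branches off after the first phosphorylation and supplies NADPH and ribose. Epidermal keratinocytes are known for high lactate production, and lactate dehydrogenase has been tied to the activation of hair follicle stem cells in the mouse. Many of these steps are served by several genes that encode isozymes with different regulation.

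The libraries held between 30696803 and 32463362 counts in named genes, and values below are CPM, counts scaled to a common library total, after trimmed mean of M-values (TMM) scaling. LGR5 itself had 4551 and 6224 counts in LGR5-high and 36 and 109 in LGR5-negative (pigs 88R and 95R), and SOX9 was higher as well. The 7 suprabasal epidermal markers were all lower in LGR5-high, with a summed level of 6075 to 6664 CPM against 57750 to 66871 CPM in LGR5-negative. Of 5 tested basal markers, the integrins ITGA6 (-0.94 on the log2 scale) and ITGB4 (-0.38) and the collagen COL17A1 (-0.47) were lower, and the basal keratin KRT5 (-0.18) and TP63 (-0.17) were not called. Melanocyte markers summed to 63.9 and 63.5 CPM in LGR5-high and to 84.4 and 258 CPM in LGR5-negative. Among them PMEL, MLANA, TYRP1 and TYR were called lower, and DCT, MITF and KIT were not called. Langerhans and immune markers summed to 15.1 and 15.3 CPM against 102 and 144 CPM. Smooth muscle markers summed to 403 and 292 CPM against 15.1 and 14.6 CPM. The smooth muscle sum was mostly TAGLN, with 389 and 277 CPM in LGR5-high. ACTA2, MYH11 and CNN1 were also called higher, at 3.90 to 5.51 CPM in LGR5-high. Of the other lists, 6 of 7 follicle stem cell markers and 3 of 4 tested sebaceous markers were higher, while 4 of 5 endothelial and 5 of 6 fibroblast markers were lower. Over all tested genes, 22.7% were called higher and 22.0% lower. COL1A1, the other fibroblast marker, was higher, at 142 and 331 CPM against 94.0 and 37.3 CPM. Fibroblast markers summed to 232 and 449 CPM in LGR5-high and to 351 and 228 CPM in LGR5-negative, which overlap. The higher sebaceous markers were SCD, MGST1 and FADS2, while AWAT2 was not called and PPARG was not tested. Of the skeletal muscle markers, 2 were tested and MYH7 was higher, on 13 and 15 counts against 3 and 2, while ACTA1 had 0 counts in every library. The part of these cell types in the results below was not tested, and in bulk RNA fewer cells of a type and less RNA per cell cannot be told apart.

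These genes went both ways in LGR5-high, and most differences were small beside those of a few isozymes. Called here means an adjusted p-value below 0.05 in the quasi-likelihood test of edgeR over all 15980 genes. Among the 35 genes, 10 were called higher in LGR5-high, 11 were called lower, and 14 were not called. The 21 calls are 60.0% of the genes, beside 44.7% of all tested genes (22.7% higher and 22.0% lower). The median of the mean levels was 119 CPM for the 35 genes and 18.1 CPM for all tested genes, so that the 35 genes rest on more counts than most. The part of depth in the share of calls was not tested. The median log2 fold change was 0.16, beside 0.02 for all tested genes. Called genes with a change of at least 2-fold were 7 of the 35, 3 of them higher (HK2, SLC16A1 and ENO2) and 4 lower (SLC2A3, PFKFB3, PFKFB2 and PFKP). Among all tested genes such calls made up 24.1% (14.6% higher and 9.42% lower), so that a low share of them was not particular to the 35 genes. The summed level of the 35 genes was 7356 and 7138 CPM in LGR5-high and 8035 and 7639 CPM in LGR5-negative. As a share of the counts of a library, without TMM scaling, it was 0.797 and 0.768% against 0.739 and 0.711%. The direction of the sum thus depended on the scaling. The levels of LGR5-high and LGR5-negative did not overlap for 29 of the 35 genes, beside 76.6% of all tested genes, and LGR5-high was above in 16 of them and below in 13, beside 39.2% and 37.4%.

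**Figure D1:**
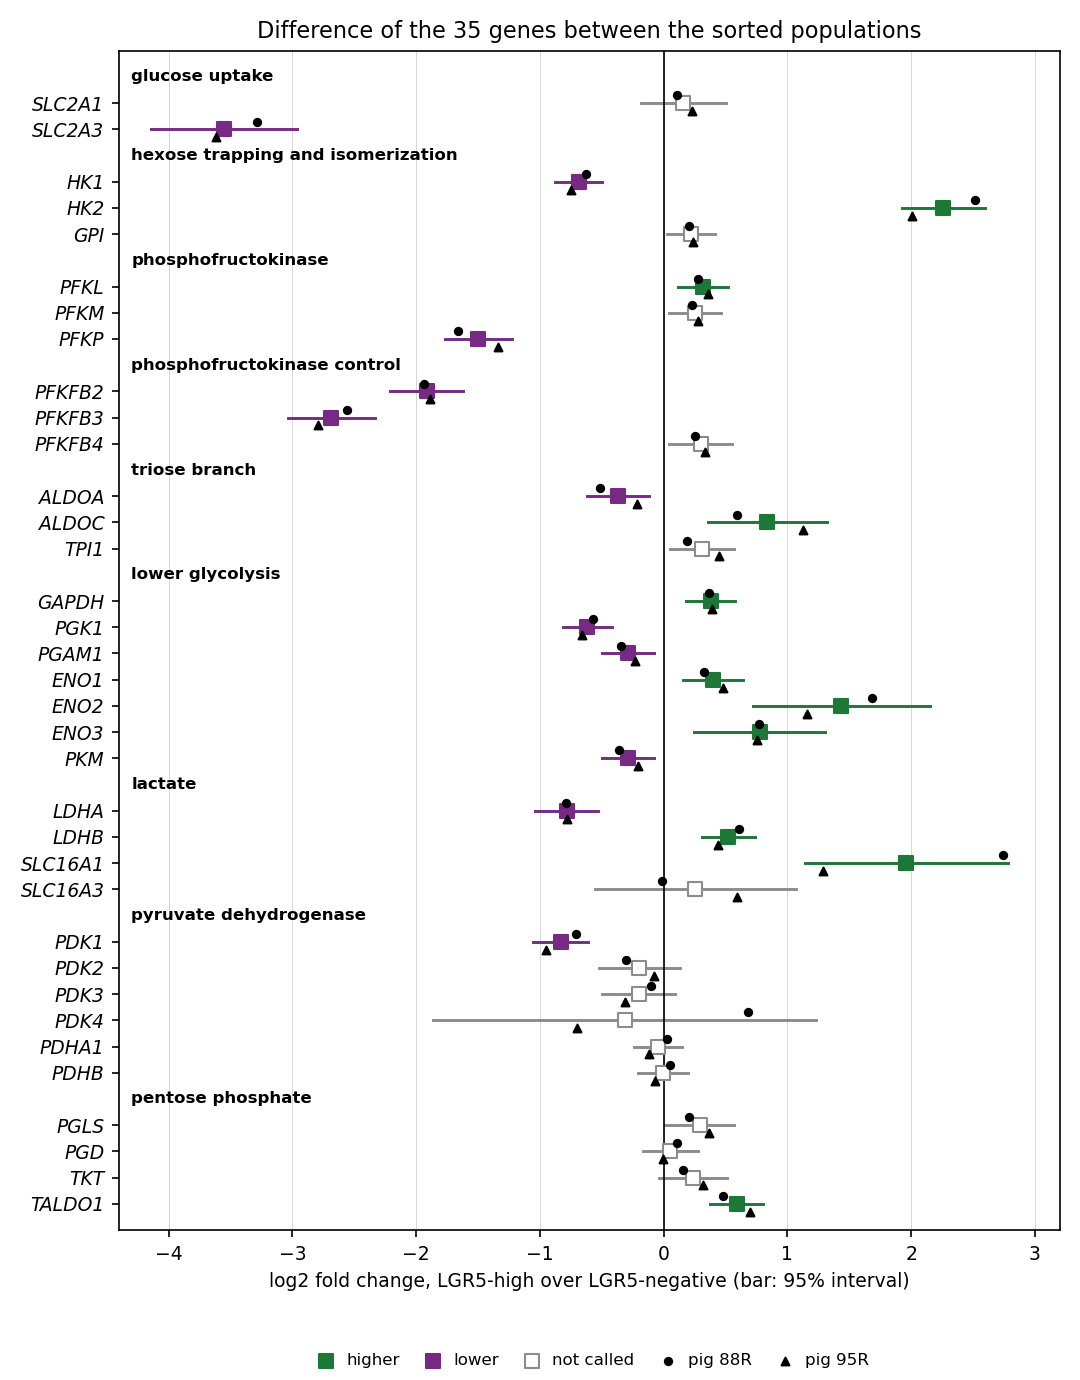
Log2 fold change of each of the 35 genes, LGR5-high over LGR5-negative, from edgeR's quasi-likelihood fit (squares, filled where called at an adjusted p-value under 0.05) with its 95% interval (bars), and the log2 fold change within pig 88R (circles) and pig 95R (triangles). HK2 (2.26) and SLC16A1 (1.96) lie farthest to the right and SLC2A3 (-3.55) and PFKFB3 (-2.68) farthest to the left, while most enzymes of the main glycolytic chain lie within 1 unit of 0.

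Both populations came from the same pigs. When the pig entered the fit as a block, 16 genes were called higher and 11 lower, against 28.5% and 27.2% of all tested genes (55.7% in either direction). The 6 genes gained with the block were GPI, PFKM, PFKFB4, TPI1, PGLS and TKT, with blocked log2 fold changes between 0.22 and 0.32. Scaling by library size only, the split was 16 higher and 8 lower, against 34.2% and 14.6% of all tested genes, and the median of all tested genes moved to 0.24. Upper quartile scaling gave 15 higher and 8 lower and a median of 0.11 over all tested genes. GPI, PFKM, PFKFB4, TPI1 and PGLS were also gained under both of these scalings, TKT with library size only, and GPI, PFKM, PFKFB4 and TPI1 with a filter of at least 10 counts in every library. All 21 calls kept their direction under every alternative that was run. The 12 genes that were called without each library in turn, and under each alternative other than Student's t-test, were HK2, LDHB, SLC16A1 and TALDO1 among the higher genes and SLC2A3, HK1, PFKP, PFKFB2, PFKFB3, PGK1, LDHA and PDK1 among the lower genes. Leaving out either LGR5-high library lost the same 9 calls, those of ALDOA, ALDOC, PGAM1, PKM, PFKL, GAPDH, ENO1, ENO2 and ENO3, in a fit with 3 libraries. ENO1, ENO3 and PFKL also lost their calls without the LGR5-negative library of pig 95R, and ALDOA, PKM, PGAM1 and ENO3 without that of pig 88R.

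Glucose uptake separated into a transporter that did not pass the test and another with few counts in LGR5-high. SLC2A1, the main glucose transporter of keratinocytes, had 642 and 554 CPM in LGR5-high and 598 and 474 CPM in LGR5-negative (pigs 88R and 95R, the order used throughout). These 4 values overlap, and the log2 fold change was 0.16 with a 95% interval from -0.18 to 0.50 (adjusted p = 0.389). For SLC2A3, a transporter with a higher affinity for glucose, the levels were 0.785 and 0.666 CPM in LGR5-high against 8.21 and 8.90 CPM in LGR5-negative. Both LGR5-high libraries lie below both LGR5-negative libraries, on 27 and 22 counts against 234 and 269. SLC2A3 had a log2 fold change of -3.55 (SE 0.238, adjusted p = 2.35e-04). Of the 5 tested markers of Langerhans and immune cells, CD207, CD74, PTPRC and CSF1R were lower as well and AIF1 was higher, and their part in the SLC2A3 difference was not tested.

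The hexokinases, which phosphorylate glucose and so hold it in the cell, moved in opposite directions. HK2, the inducible isozyme, had 163 and 137 CPM in LGR5-high and 28.5 and 34.1 CPM in LGR5-negative. Every LGR5-high value was at least 4 times every LGR5-negative value, and the fold change was 4.79 (log2 fold change 2.26, SE 0.135, adjusted p = 1.71e-04). HK1, the isozyme found in most tissues, had 136 and 129 CPM in LGR5-high and 210 and 216 CPM in LGR5-negative, with both LGR5-high values below both others. Its log2 fold change was -0.69 (SE 0.0771, adjusted p = 0.00129). The ratio of HK2 to HK1 counts within a library, which does not depend on the scaling between libraries, was 1.20 and 1.06 in LGR5-high and 0.136 and 0.158 in LGR5-negative. This ratio was 8.83-fold higher in LGR5-high in pig 88R and 6.73-fold higher in pig 95R. GPI, which turns glucose phosphate into fructose phosphate, had 235 and 249 CPM in LGR5-high and 204 and 211 CPM in LGR5-negative. Its groups do not overlap, but it had a log2 fold change of 0.22 (adjusted p = 0.0656) and was not called, while with the block it was, with an adjusted p of 0.0419.

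**Figure D2:**
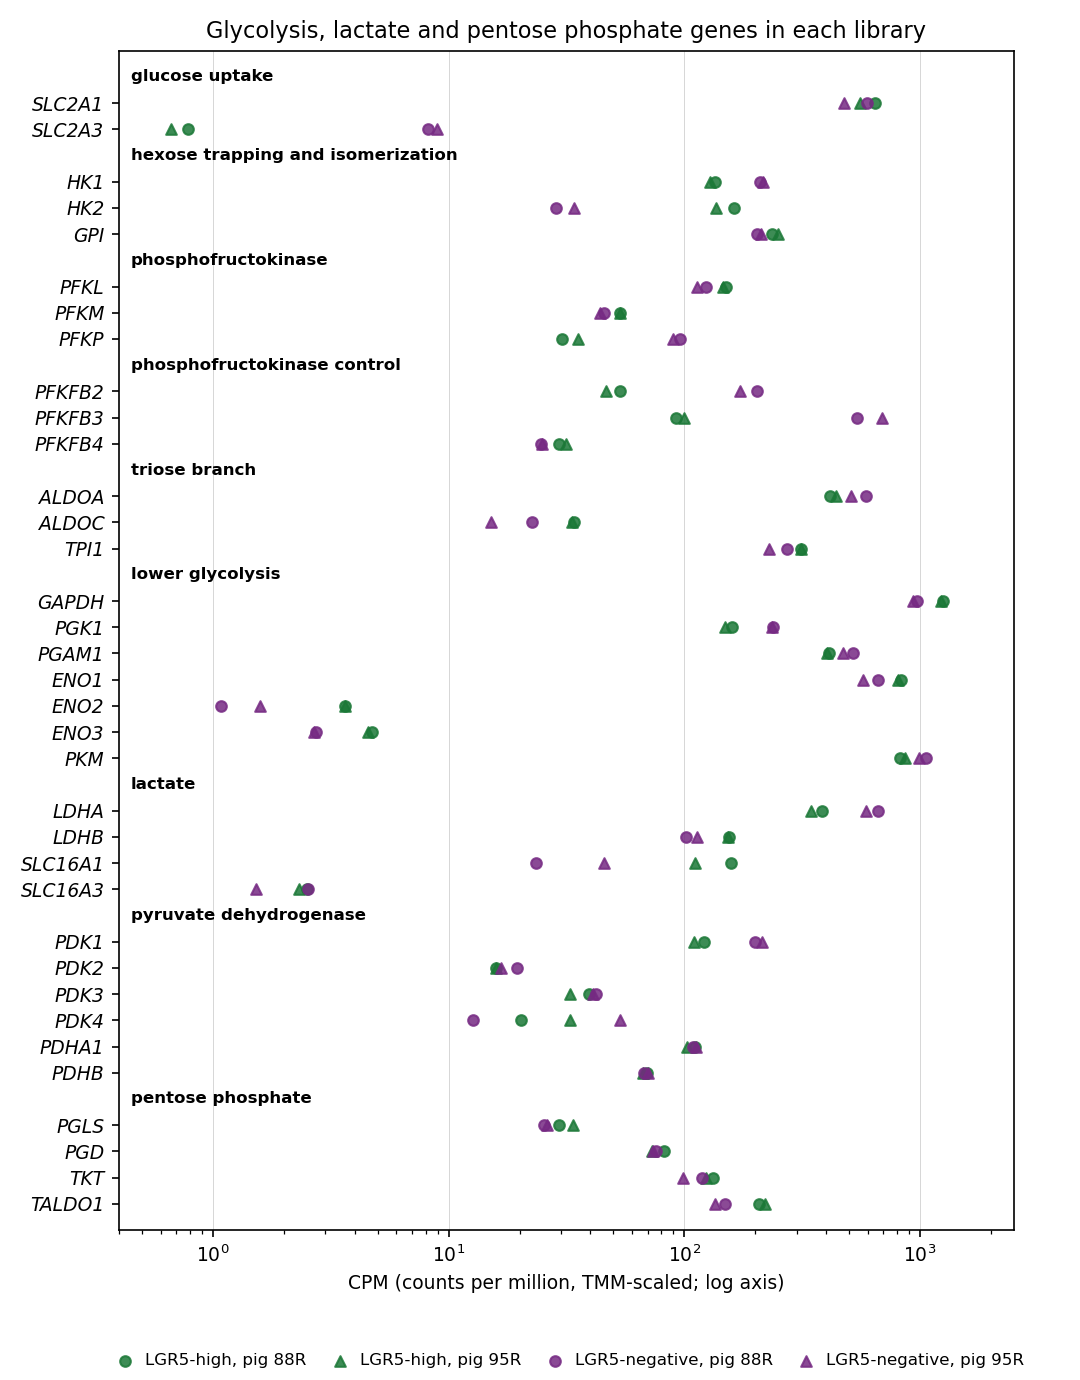
Level of each gene in each of the 4 libraries in CPM on a log axis, with LGR5-high in green, LGR5-negative in purple, circles for pig 88R and triangles for pig 95R. The 2 populations separate widely for SLC2A3, HK2, PFKP, PFKFB2, PFKFB3 and SLC16A1, while the 4 values of PDHA1, of PDHB and of PGD nearly coincide and the PDK4 values of the pigs cross.

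Phosphofructokinase, the committed step of glycolysis, is built from liver (PFKL), muscle (PFKM) and platelet (PFKP) type subunits. PFKP had 30.4 and 35.6 CPM in LGR5-high and 96.2 and 89.9 CPM in LGR5-negative, with no overlap. PFKP was lower in LGR5-high, with a log2 fold change of -1.50 (SE 0.109, adjusted p = 3.09e-04). PFKL was slightly higher, at 150 and 145 CPM against 123 and 113 CPM (log2 fold change 0.32, adjusted p = 0.0243), and PFKM at 53.6 and 53.3 CPM against 45.6 and 43.9 CPM missed the threshold (log2 fold change 0.26, adjusted p = 0.0564, and 0.0397 with the block). The ratio of PFKP to PFKL counts was 0.203 and 0.245 in LGR5-high and 0.779 and 0.793 in LGR5-negative, while that of PFKM to PFKL moved only from 0.369 and 0.387 to 0.358 and 0.366.

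The bifunctional enzymes encoded by the PFKFB genes make and break down the sugar bisphosphate that activates phosphofructokinase. PFKFB3, whose product is known for a strong kinase activity, had 92.0 and 99.8 CPM in LGR5-high and 541 and 692 CPM in LGR5-negative. The groups stand far apart, and its level was 6.43-fold lower in LGR5-high (log2 fold change -2.68, SE 0.142, adjusted p = 1.24e-04). PFKFB2 had 53.3 and 46.7 CPM against 204 and 173 CPM, again without overlap, and a log2 fold change of -1.91 (SE 0.120, adjusted p = 1.93e-04). PFKFB4 did not follow them. It had 29.4 and 31.4 CPM in LGR5-high and 24.6 and 24.8 CPM in LGR5-negative, with a log2 fold change of 0.30 and an adjusted p of 0.0611 (0.0361 with the block). Within a library there were 3.13 and 3.18 PFKFB3 counts for each PFKFB4 count in LGR5-high, and 22.0 and 27.9 in LGR5-negative.

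From GAPDH to pyruvate kinase the steps did not share a direction, with GAPDH and ENO1 higher and PGK1, PGAM1 and PKM lower in LGR5-high, each by less than 1 on the log2 scale. GAPDH, the dehydrogenase that opens the energy-yielding phase, had 1247 and 1225 CPM in LGR5-high and 968 and 932 CPM in LGR5-negative. Both LGR5-high values lie above both others, with a log2 fold change of 0.38 (SE 0.0809, adjusted p = 0.0129). The next enzyme, the kinase PGK1 that makes the first ATP, had 160 and 149 CPM in LGR5-high and 238 and 235 CPM in LGR5-negative. It was lower in LGR5-high, with a log2 fold change of -0.62 (SE 0.0790, adjusted p = 0.00211). The ratio of PGK1 to GAPDH counts was 0.128 and 0.122 in LGR5-high and 0.246 and 0.253 in LGR5-negative. The enolase ENO1 was higher, at 830 and 804 CPM against 662 and 575 CPM (log2 fold change 0.40, adjusted p = 0.0204). PKM had 825 and 860 CPM in LGR5-high and 1062 and 993 CPM in LGR5-negative, and PGAM1 had 411 and 402 CPM against 520 and 471 CPM. The mutase PGAM1 and the pyruvate kinase PKM, on either side of enolase, were lower, with log2 fold changes of -0.29 and -0.29 (adjusted p = 0.0399 and 0.0384). Counts of PKM for each ENO1 count were 0.994 and 1.07 in LGR5-high and 1.60 and 1.73 in LGR5-negative. The calls of PGAM1 and PKM were lost with a filter of at least 10 counts in every library, and those of PGAM1, PKM and ALDOA with upper quartile scaling and with library size only, where all 3 log2 fold changes stayed below 0 and the highest were -0.06, -0.06 and -0.14.

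The aldolases, which split the sugar bisphosphate into trioses, and the minor enolases also differed between isozymes. ALDOA was lower in LGR5-high (414 and 439 CPM against 590 and 510 CPM, log2 fold change -0.37, adjusted p = 0.0301). ALDOC, the brain type, was higher, at 34.0 and 33.3 CPM against 22.5 and 15.2 CPM (log2 fold change 0.84, adjusted p = 0.0174). ENO2, the neuronal enolase, had 3.64 and 3.63 CPM in LGR5-high and 1.09 and 1.59 CPM in LGR5-negative, and ENO3, the muscle enolase, 4.71 and 4.57 CPM against 2.74 and 2.68 CPM. Both were higher in LGR5-high, with log2 fold changes of 1.44 (adjusted p = 0.0108) and 0.78 (adjusted p = 0.0301), on 31 to 162 counts per library. ENO3 lost its call in DESeq2 with and without the block. Of 4 tested nerve markers, NCAM1 was higher in LGR5-high on 208 and 183 counts against 3 and 3, S100B was higher and SOX10 was lower. The skeletal muscle marker MYH7 was higher as well, with a log2 fold change of 2.23 (adjusted p = 0.0231), and the skeletal muscle marker CKM had 3 to 8 counts per library. MYH7 also lost its call in DESeq2 with and without the block. TTN, the other skeletal muscle marker tested, had 43 to 78 counts per library and was not called (log2 fold change 0.33). The part of nerve and muscle RNA in ENO2, ENO3 and ALDOC was not tested. The triose isomerase TPI1 had 312 and 312 CPM in LGR5-high and 274 and 229 CPM in LGR5-negative. With a log2 fold change of 0.31, it missed the threshold (adjusted p = 0.0561) and was called with the block (adjusted p = 0.00797).

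The lactate dehydrogenase subunits moved apart. LDHA, the subunit that favours lactate formation, had 385 and 345 CPM in LGR5-high and 665 and 592 CPM in LGR5-negative. It was lower in LGR5-high by nearly the same amount in both pigs, with log2 fold changes of -0.79 and -0.78 within the pigs and -0.78 in the test (SE 0.102, adjusted p = 0.00223). LDHB, the heart type subunit, had 155 and 154 CPM in LGR5-high and 102 and 113 CPM in LGR5-negative, and was higher with a log2 fold change of 0.52 (SE 0.0860, adjusted p = 0.00519). For each LDHB count a library held 2.48 and 2.24 LDHA counts in LGR5-high and 6.55 and 5.22 in LGR5-negative. This ratio was 2.63-fold lower in LGR5-high in pig 88R and 2.33-fold lower in pig 95R. Of 19 such ratios between the 35 genes, 18 had groups that did not overlap, PDK4 to PDK1 being the exception. The share among other gene pairs was not computed, and the levels of 76.6% of all tested genes did not overlap. The 18 include PDHA1 to PDHB, with log2 differences between the populations of only -0.03 and -0.05. An exact permutation test of a single ratio with 2 libraries a group cannot give a p below 0.333.

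**Figure D3:**
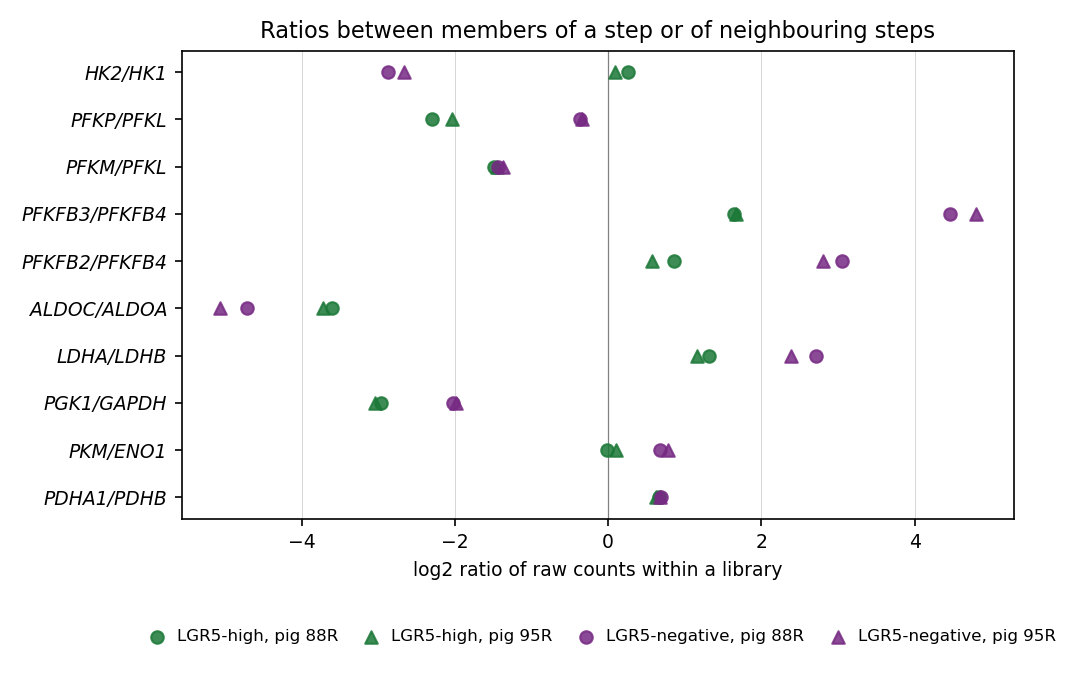
Log2 ratio of the raw counts of 2 genes within a library, for LGR5-high (green) and LGR5-negative (purple) of pig 88R (circles) and pig 95R (triangles). The populations stand apart by more than 1 unit for HK2 to HK1, PFKP to PFKL, PFKFB3 and PFKFB2 to PFKFB4, and LDHA to LDHB, while PFKM to PFKL and PDHA1 to PDHB lie nearly at the same place.

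The monocarboxylate transporter SLC16A1, which moves lactate and pyruvate together with protons, had 157 and 111 CPM in LGR5-high and 23.4 and 45.5 CPM in LGR5-negative. Both LGR5-high values were more than 2 times the highest LGR5-negative value, but the size differed between the animals, with a log2 fold change of 2.74 in pig 88R and 1.29 in pig 95R. In the test it was 1.96 (SE 0.331, adjusted p = 0.00567). Leaving out each library in turn kept it between 1.55 and 2.51. SLC16A1 shares its span with LRIG2 in the RefSeq annotation, and LRIG2 had 1888 and 1535 counts in LGR5-high and 1398 and 1506 in LGR5-negative. SLC16A3, the transporter tied to lactate export, had low levels, with 86 and 77 counts against 72 and 46. Its CPM values overlap, and its log2 fold change of 0.26 had a 95% interval from -0.55 to 1.07 (adjusted p = 0.557).

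At the entry to the mitochondrion, a single one of 6 genes passed the test. PDK1, a kinase that inactivates pyruvate dehydrogenase, had 122 and 110 CPM in LGR5-high and 200 and 213 CPM in LGR5-negative, without overlap. It was lower in LGR5-high, with a log2 fold change of -0.83 (SE 0.0895, adjusted p = 0.00112). The related kinases PDK2 and PDK3 had log2 fold changes of -0.20 and -0.20 (adjusted p = 0.276 and 0.216), and both turned slightly above 0 with library size only. PDK4, the kinase known to respond to fasting, had 20.4 and 32.8 CPM in LGR5-high and 12.7 and 53.4 CPM in LGR5-negative. The pigs went opposite ways, with a log2 fold change of 0.68 for 88R and -0.70 for 95R, and the 95% interval ran from -1.86 to 1.23 (adjusted p = 0.708). Without the LGR5-negative library of pig 95R its log2 fold change was 1.06 (adjusted p = 0.0295), and without that of pig 88R it was -1.01 (adjusted p = 0.0234), so that its direction changed with the LGR5-negative library used. The melanocyte markers, summed, were likewise highest in the LGR5-negative library of 95R, and their part in PDK4 was not tested. The subunits PDHA1 and PDHB of the complex itself were not called, with log2 fold changes of -0.05 and -0.01 and 95% intervals from -0.24 to 0.15 and from -0.21 to 0.19 on the log2 scale, and both turned above 0 with upper quartile scaling and with library size only.

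The 4 pentose phosphate genes had log2 fold changes above 0 in the test, and TALDO1 alone was called. TALDO1, the transaldolase of the non-oxidative branch, had 207 and 219 CPM in LGR5-high and 148 and 135 CPM in LGR5-negative. Both LGR5-high values lie above both others, and the log2 fold change was 0.59 (SE 0.0864, adjusted p = 0.00341). Its partner TKT, the transketolase, had 133 and 123 CPM against 119 and 98.8 CPM (log2 fold change 0.23, adjusted p = 0.139). In the oxidative branch, the lactonase PGLS had a log2 fold change of 0.29 (adjusted p = 0.0869) and the dehydrogenase PGD one of 0.05 (adjusted p = 0.656). With the block PGLS and TKT were called as well, with adjusted p-values of 0.0427 and 0.0338, and PGD was not (0.651).

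Other genes of the same pathways were described from lists of 126 symbols, of which 124 matched a row and 111 were tested. These lists were tested in the same fit, with 26 genes called higher (23.4%) and 28 lower (25.2%), and their median log2 fold change was -0.04. The shares over all tested genes, beside which the counts of each list below stand, were 22.7% higher and 22.0% lower. With the block they were 28.5% and 27.2%. Among the other glucose carriers, 4 of 8 tested genes were lower and 1 was higher. The carriers SLC2A12 and SLC5A1, a sodium-coupled glucose transporter, had log2 fold changes of -2.44 (SE 0.134) and -2.33 (SE 0.138), on 1327 and 1684, and 821 and 767 counts in LGR5-negative. SLC2A9, known for urate transport, had one of -2.76, and SLC2A6 was higher with 1.88. The counts of SLC2A9 and SLC2A6 were below 50 in every library.

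Of 12 other glycolysis genes tested, 4 were higher and 3 were lower. The ADP-dependent sugar kinase ADPGK was higher with a log2 fold change of 0.52, as was the glycerol phosphate dehydrogenase GPD1 (1.00), while its mitochondrial counterpart GPD2 (-0.82), the sugar bisphosphatase TIGAR (-0.55) and the pyruvate kinase PKLR (-0.93) were lower. Of 4 gluconeogenesis genes tested, 3 were higher and 1 was lower. FBP1, the bisphosphatase that opposes phosphofructokinase, had 95 and 295 counts in LGR5-high and 12 and 18 in LGR5-negative. Its log2 fold change was 3.51 (SE 0.653, adjusted p = 0.00803), with 2.54 in 88R and 3.77 in 95R. The glucose phosphatase G6PC3 (0.97) and the mitochondrial carboxykinase PCK2 (0.58) were higher and pyruvate carboxylase PC (-0.44) was lower.

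**Figure D4:**
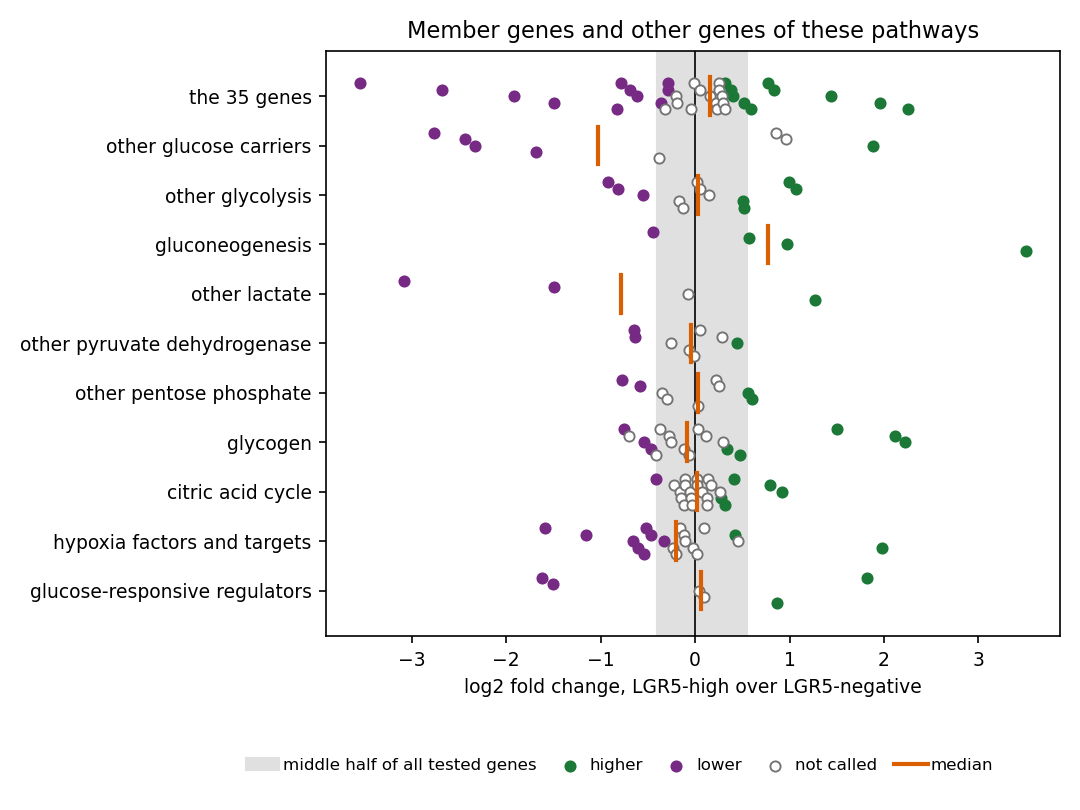
Log2 fold changes, LGR5-high over LGR5-negative, of the 35 genes (top) and of tested genes in 10 other lists, as filled circles where called higher (green) or lower (purple) and open circles where not called. Orange bars are medians and the grey band runs from -0.41 to 0.55, the 25th and 75th percentiles of all 15980 tested genes.

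Among other lactate genes, 2 of 4 tested were lower and 1 was higher. The pyruvate and lactate transporter SLC16A7 was lower, with 63 and 33 counts against 341 and 366 and a log2 fold change of -3.08 (SE 0.305, adjusted p = 8.34e-04), opposite to SLC16A1. EMB, a chaperone of such transporters, had a log2 fold change of -1.50, and the dehydrogenase LDHD one of 1.27. Around pyruvate dehydrogenase, both phosphatases that reactivate the complex were lower, PDP1 with -0.64 (SE 0.113) and PDP2 with -0.64 (SE 0.126), and the core subunit DLAT was higher with 0.45, while the other 5 of 8 genes were not called. With the block 2 of the 8 were higher and 2 were lower. Of 9 other pentose phosphate genes tested, 2 were higher and 2 were lower. H6PD, a hexose phosphate dehydrogenase of the endoplasmic reticulum, was lower with a log2 fold change of -0.58 (SE 0.0809, adjusted p = 0.00281), as was PRPS2, which uses ribose phosphate to start nucleotide synthesis (-0.78). The ribokinase RBKS was higher with 0.56.

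Among glycogen genes, which store and release glucose phosphate, 5 of 18 tested genes were higher and 3 were lower, and with the block 6 were higher and 6 lower. GYG1, the glycogenin that primes the chain, had 1724 and 1598 counts in LGR5-high and 460 and 566 in LGR5-negative (log2 fold change 1.50, SE 0.116, adjusted p = 3.68e-04). The phosphorylase PYGB was higher with 1795 and 1607 counts against 279 and 406 (log2 fold change 2.12, SE 0.170, adjusted p = 4.15e-04), and so was PPP1R3C, which brings a phosphatase to glycogen (log2 fold change 2.22, SE 0.263). The phosphoglucomutases PGM1 (-0.55) and PGM2 (-0.76) were lower. Of the 43 genes that the rule for named genes takes from all 10 of these lists, 16 lost their call without at least 1 library, and among those named above they were SLC2A6, ADPGK, GPD1, TIGAR, PKLR, PCK2, PC, LDHD, DLAT, PDP2 and RBKS.

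Some of these genes share positions with other genes, and whether they share reads was not tested. In the RefSeq annotation of Sscrofa11.1, 15 of the 35 genes share their span with another gene, and the strand setting of the counting is not given in the sources used here. Besides LRIG2, the overlapping genes with more than 1 count for every 10 of the gene itself in a library were LOC110260979 beside GPI, SENP1 beside PFKM, YOD1 beside PFKFB2, SAMD14 beside PDK2 and GATD1 beside TALDO1. How reads shared with near-identical copies, such as the pseudogenes known for GAPDH and other glycolytic genes, were counted is not given either.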

How the data were processed

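The deposited table holds raw read counts per gene, made by the authors from 150 bp paired-end reads of poly(A) RNA; the submitters' processing notes list Trimmomatic 0.36, STAR 2.5.2b, featureCounts and Subread 1.5.2. The genome build, annotation and strand setting are not given in the sources used here. An entry without a gene name, 0.360 to 0.626% of the counts of a library, was left out, and no column was left unused (0). The counts were filtered (filterByExpr, minimum count 10), scaled by TMM and tested in R 4.3.3 with edgeR 4.0.16 (glmQLFit, glmQLFTest) between 2 LGR5-high and 2 LGR5-negative libraries, with Benjamini-Hochberg adjustment over all 15980 genes tested. Standard errors and 95% intervals are from this fit, and log2 fold changes within a pig used a prior count of 2. Values are for 1 library per pig and population. The main test treats the 4 libraries as separate samples. Its p-values rest on the spread between 2 animals within a population, moderated by the spread over all tested genes. With the block, p-values rest on the spread left after the pig is taken out, moderated likewise.

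Whether the pig pairs the libraries was checked: deviations from the group means correlated at 0.370 between the populations of an animal, and the labels give each pig both populations. Replicate libraries differed by far more than counting noise (chi-square per degree of freedom 20.3 and 23.1), and a gene with 0 counts in a library may hold up to 3 counts, or 0.0873 to 0.105 CPM, for counting error only. Alternatives were other scalings, other count filters, the pig as a block, DESeq2 1.42.0, limma-voom (limma 3.58.1), Student's t-test (the study's methods name this test without a scale) of log2(CPM + 1) values, a minimum change of 2-fold, and leaving out each library. The fits were also run on simulated data with the same dispersion setting for every gene and no pig effect, so that pairing by pig was not part of that check. The 35 genes, the other lists and the ratios were chosen with earlier results of these data known. All 35 genes were named, and from each other list up to 3 called genes with the largest rise and up to 3 with the largest fall, of the same direction in both pigs and with at least 10 counts in a library; a few of these, and a marker, are not reported here by name. Levels of different genes were not compared, since transcript lengths were not used here. Overlaps were read from the RefSeq annotation of Sscrofa11.1, where all 35 names matched.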

Additional observations from a re-analysis of the deposited data

How the results depend on the processing

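The 10 higher and 11 lower calls among the 35 genes became 16 higher with library size only, and 16 higher with the replicate block, 1 higher and 1 lower by the t-test of log2 CPM values (ENO3 and SLC2A3), and 3 higher and 4 lower with a minimum change of 2-fold. Without each library in turn the higher calls ranged from 4 to 10 and the lower calls from 8 to 11. The other pathway genes, 26 higher and 28 lower, gave 17 higher in DESeq2 with the replicate block, 3 higher and 6 lower with the t-test, 9 higher and 10 lower with the minimum change, 12 to 19 higher and 17 to 26 lower without each library. The lowest of these counts, 12 and 17, came without the LGR5-high library of pig 95R. The median log2 fold change of the 35 genes, 0.16, was 0.25 with upper quartile scaling and 0.38 with library size only, where the median of all tested genes moved as well (0.11 and 0.24), and ran from 0.019, without the LGR5-negative library of pig 95R, to 0.19. No called gene changed sign. Among genes not called, the log2 fold change turned to 0.029 for PDK2 and 0.023 for PDK3 with library size only, for PDHA1 to 0.049 with upper quartile scaling and 0.18 with library size only, and for PDHB to 0.087, 0.22 and, with at least 10 counts in every library, 0.023. Without each library in turn it ran from -0.0073 to 0.33 for SLC2A1, from -0.073 to 0.66 for SLC16A3, from -1.01 to 1.06 for PDK4, from -0.11 to 0.011 for PDHA1, from -0.046 to 0.026 for PDHB and from -0.038 to 0.14 for PGD. The pairing by pig changed no other call among the 35 genes than the 6 gained. Except where the alternative itself uses fewer libraries or a stricter threshold, the cause was not tested, and 2 libraries a group limit the precision of every value.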

Other observations

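Downstream of pyruvate, 23 genes of a citric acid cycle list were tested, which also held cytosolic isozymes and malic enzymes. Of these, 5 were called higher in LGR5-high (21.7%) and 1 lower (4.35%), beside 22.7% and 22.0% of all tested genes. The median log2 fold change of the 23 genes was 0.02. The higher genes with the largest change were the cytosolic isocitrate dehydrogenase IDH1, with 4294 and 3918 counts against 1854 and 1936 (log2 fold change 0.92, SE 0.0776), the cytosolic aconitase ACO1 (0.79, SE 0.127) and the malic enzyme ME2 (0.41, adjusted p = 0.0424 in edgeR's test). DLST, a subunit of the oxoglutarate dehydrogenase complex, was the lower gene (-0.42, SE 0.0813). ME2 lost its call when any of several single libraries was left out, and DLST without the LGR5-high library of pig 95R.

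The hypoxia response is known to control many glycolytic genes. Of 19 tested genes of this response, 2 were called higher in LGR5-high (10.5%) and 8 lower (42.1%). The shares over all tested genes were 22.7% and 22.0%. The median log2 fold change of the 19 genes was -0.20. The factor HIF1A was higher, with 10969 and 10353 counts against 6699 and 7155 (log2 fold change 0.42, SE 0.0738), as was DDIT4, an inhibitor of mTOR signalling that also responds to other stresses (1.98, SE 0.0811). The prolyl hydroxylase EGLN1 (-1.59, SE 0.176), the carbonic anhydrase CA9 (-1.16, SE 0.103) and the collagen hydroxylase P4HA1 (-0.66, SE 0.142) were lower. P4HA1 lost its call without the LGR5-high library of pig 95R.

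Of 6 tested regulators that respond to glucose, 2 were called higher in LGR5-high and 2 lower (33.3% each). The shares over all tested genes were 22.7% and 22.0%. TXNIP and MLX were not called, with log2 fold changes of 0.09 and 0.04. The arrestin-like ARRDC4 was lower (-1.50, SE 0.169) and ARRDC3 higher (0.87, SE 0.0866), and of the glucose-sensing factors MLXIP was lower, with 1649 and 1636 counts against 4135 and 4656 (log2 fold change -1.62, SE 0.0806). MLXIPL was higher (1.82) on 2 to 15 counts and lost its call without any single library.

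GAPDH and ACTB are widely used as reference genes in RT-qPCR. GAPDH was higher in LGR5-high, with a log2 fold change of 0.38 (SE 0.0809), and ACTB, chosen after its values were seen, had 2053 and 1994 CPM in LGR5-high and 1843 and 1642 CPM in LGR5-negative. ACTB had a log2 fold change of 0.22 (SE 0.0963) with an adjusted p of 0.120 in edgeR's test, and of 0.0453 with the pig as a block.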
